A study of Homo sapiens with 18 samples.

Results

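The 45 genes described here encode Polycomb proteins, histone modifiers, chromatin remodellers and insulator or cohesin proteins. They were taken by symbol from a gene count table of 55766 genes and were compared between untreated cells and cells in which a transgene had been silenced. All 45 were among the 13786 genes that passed the filter on low counts. The cells were K562, an established human chronic myeloid leukaemia line, and every group, the untreated cells included, carried a B2M:tdTomato transgene, in which the red fluorescent protein tdTomato reports on the promoter of beta-2-microglobulin. The study compared 3 groups of 3 RNA-seq libraries and 3 groups of 3 MeDIP-seq libraries, in which DNA carrying 5-methylcytosine is captured with an antibody. TALE silenced cells and dCas9 silenced cells had received 3 plasmids, each for a different ATR (an artificial transcriptional repressor), 1 of them based on D3A. The repressors were aimed by a TALE, a programmable DNA-binding protein, or by dCas9, a Cas9 that no longer cuts, with a further plasmid for the guide RNA. The labels call the third group untreated, give no collection time and do not say whether the replicates of a group were separate cultures or whether the cells came from 1 clone, so the p-values measure the spread between these libraries, which may be technical.

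Polycomb repressive complex 2 (PRC2) methylates lysine 27 of histone H3, and Polycomb repressive complex 1 (PRC1) reads that mark and ubiquitinates histone H2A; both keep developmental genes off. Other histone methyltransferases mark active promoters, transcribed gene bodies or heterochromatin, and demethylases remove those marks. Acetyltransferases open chromatin, deacetylases reverse them, and SWI/SNF and NuRD move nucleosomes with the energy of ATP. Most genes of this kind have promoters in CpG islands, short stretches rich in the dinucleotide CG, which are usually free of DNA methylation.

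Sequences at the starts of 4 members show the stretch that the methylation data describe further down. EZH1 and EZH2 were chosen as a pair of alternative catalytic subunits with very different RNA levels, KDM4B as the member with the smallest unadjusted p against untreated cells in the TALE group, and KMT2D as the gene with the longest transcript. Each is the 200 bases before the start of the canonical transcript, on the strand of the gene, in the hg19 (GRCh37) genome, with CG in capitals.
EZH1, chr17:40897059-40897258, minus strand: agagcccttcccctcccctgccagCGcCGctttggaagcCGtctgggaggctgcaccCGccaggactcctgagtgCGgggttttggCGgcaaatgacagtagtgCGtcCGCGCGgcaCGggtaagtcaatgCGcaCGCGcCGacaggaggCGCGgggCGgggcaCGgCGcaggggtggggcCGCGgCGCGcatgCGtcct
EZH2, chr7:148581384-148581583, minus strand: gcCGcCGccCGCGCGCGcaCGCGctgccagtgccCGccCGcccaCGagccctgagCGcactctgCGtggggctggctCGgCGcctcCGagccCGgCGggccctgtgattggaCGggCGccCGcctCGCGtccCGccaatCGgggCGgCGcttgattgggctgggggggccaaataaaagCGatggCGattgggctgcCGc
KDM4B, chr19:4968924-4969123, plus strand: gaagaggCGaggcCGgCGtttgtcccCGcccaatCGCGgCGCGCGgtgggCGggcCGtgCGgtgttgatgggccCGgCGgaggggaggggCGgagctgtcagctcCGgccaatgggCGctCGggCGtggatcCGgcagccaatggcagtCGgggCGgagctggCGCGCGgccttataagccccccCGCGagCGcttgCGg
KMT2D, chr12:49454578-49454777, minus strand: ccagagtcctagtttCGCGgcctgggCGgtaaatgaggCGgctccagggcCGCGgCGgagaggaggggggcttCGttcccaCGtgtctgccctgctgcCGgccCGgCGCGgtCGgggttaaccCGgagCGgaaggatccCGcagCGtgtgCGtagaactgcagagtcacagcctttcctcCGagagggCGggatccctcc
These windows held 25 CG in EZH1, 30 in EZH2, 29 in KDM4B and 21 in KMT2D.

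The RNA libraries held 8460076 to 12050554 counts on genes, and the MeDIP libraries 2529729 to 4492751 counts on the listed regions. The targeted reporter, listed as B2M_tomato, was at 379 ± 18.0 (SD, n = 3) in CPM, the counts scaled to the size of the library, in untreated cells, 15.1 ± 2.84 in TALE silenced cells and 16.3 ± 2.58 in dCas9 silenced cells. B2M, listed separately, was at 6.45, 0.40 and 0.26 CPM in the untreated, TALE and dCas9 groups. All 12 K562 and erythroid markers listed, among them GATA1, KLF1 and the fetal and embryonic globins, had counts in every library. Of 18 markers of lymphoid, myeloid, fibroblast and epithelial cells, 6 had counts in every library, led by EPCAM at 85.0 to 118 CPM, and KRT14 was at 0 in all. In bulk RNA, fewer cells of a type and less RNA per cell cannot be told apart. The libraries TALE replicate 3 and dCas9 replicate 1 were low for long transcripts and are called below the libraries that stood apart. The median log2 deviation of the 10 longest members from their gene means was -0.40 and -0.28 there. TALE replicate 1 lay about as far the other way, at 0.32, and was kept. Values without both low libraries are therefore not cleared of this pattern. Counts of members called or at an unadjusted p under 0.05 are given with and without both libraries that stood apart. Most of the members with the smallest p are given so too, though not in every comparison.

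None of the 45 members passed an adjusted p of 0.05 in any of the 4 comparisons (edgeR quasi-likelihood test, Benjamini-Hochberg adjustment over all 13786 genes). Against untreated cells the genes called among all tested were 0.0218% for TALE, 0.029% for dCas9 and 0.0363% for the mean of both silenced groups. B2M_tomato and B2M were among the genes called in each of these comparisons. Between TALE and dCas9 the share called was 0%. At an unadjusted p under 0.05, 3 members stood out in the TALE comparison (background 7.15%), 2 in the dCas9 comparison (5.93%), 5 when the silenced groups were set against each other (6.38%) and 3 for both silenced groups against untreated (6.35%). As shares of the 45 these are 6.67%, 4.44%, 11.1% and 6.67%. The median log2 fold change of the members was 0.07 for TALE and 0.04 for dCas9, beside 0.00 over all genes in both, and 30 and 26 of the 45 were above 0. The 95% intervals of single members reached from -1.04 to 0.62 for TALE, from -0.69 to 1.05 for dCas9 and from -1.11 to 0.65 between TALE and dCas9. Groups that did not overlap in CPM were seen for 6 members in the TALE comparison (background 12.5%), for 5 in the dCas9 comparison (11.6%), for 3 between the silenced groups (9.38%) and for 2 in all silenced libraries against untreated (3.54%). The TALE and dCas9 comparisons share the same untreated libraries. All 3 groups share 1 estimate of the spread, although pairs of libraries tended to differ less in untreated cells. Their chi-square per degree of freedom was 2.117 to 15.28 there, 12.92 to 34.1 in TALE and 21.15 to 54.43 in dCas9. Fitted on only the groups compared, members at an unadjusted p under 0.05 numbered 5 for TALE (7.93% of all genes). Between TALE and dCas9 there was then 1 (4.78%). A refit without TALE replicate 3 and dCas9 replicate 1 was added after the data had been seen. In it KMT2D was called in dCas9 against untreated and KDM6B in TALE against dCas9, at a background of 0.781% and 0.881% of genes. Both libraries had been picked for low values of long transcripts, and KMT2D is the longest member. KDM6B also lay below its mean in both, and dCas9 replicate 1 was its only dCas9 library among the TALE values. Neither call there is therefore an independent test. With all 9 libraries and an offset for transcript length and GC content, the adjusted p was 0.405 for KMT2D and 0.347 for KDM6B. Leaving out any 1 library gave no called member. The members at an unadjusted p under 0.05 changed in number, as did the share of all genes in the same refit. Without TALE replicate 3 they numbered 9 for TALE (14.4% of all genes) and 10 between the silenced groups (12.7%), and without dCas9 replicate 1 they numbered 6 for dCas9 (9.60%). Without untreated replicate 2 they numbered 1 for TALE (4.43%) and 0 for dCas9 (4.61%). The lowest shares of all genes came instead without untreated replicate 3, at 3.17% for TALE and 3.73% for dCas9.

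**Figure D1:**
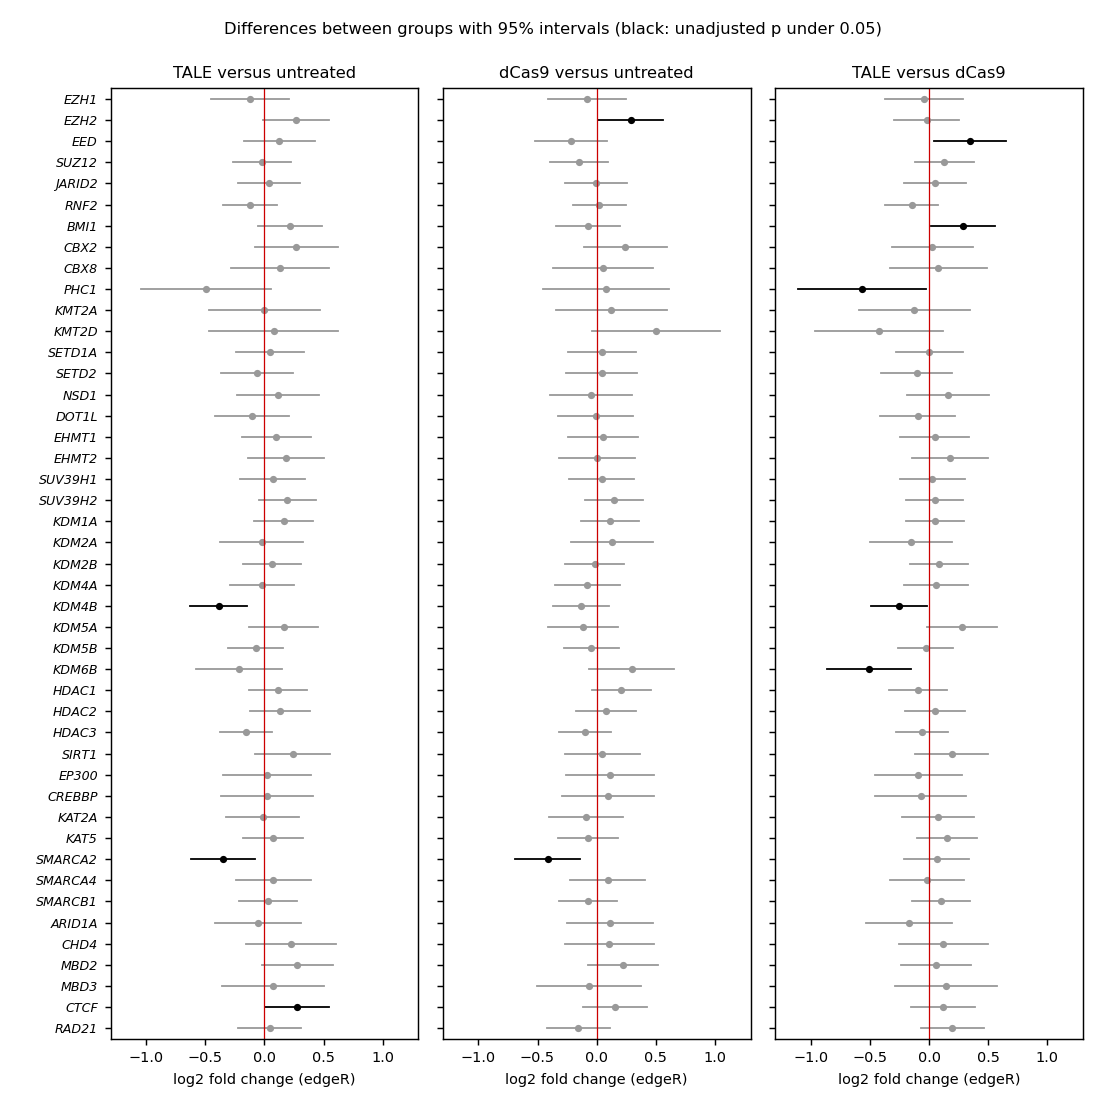
Log2 fold change (horizontal axis) of each of the 45 members in 3 comparisons, with points for the edgeR estimate and bars for its 95% interval, black where the unadjusted p was under 0.05. The black bars number 3, 2 and 5 from left to right, and none of these members passed the adjusted threshold.

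Levels are compared between genes per length, as RPKM, the CPM divided by the length of the canonical transcript in kilobases. In untreated cells HDAC1, a class I deacetylase, was the highest member at 111 ± 7.72 RPKM (SD, n = 3), and PHC1, a PRC1 subunit, was the lowest at 0.714 ± 0.0972. By canonical length the median member was at 11.5 RPKM, above the 7.82 of 12229 tested genes with a known length. The same comparison by the union of all annotated exons is not given here. By canonical length HDAC1 and EZH2 (75.8) ranked above all others with no overlap between the libraries of neighbours. RAD21 (63.9), KDM1A (59.4) and SMARCA4 (53.1) followed with overlapping neighbours, then CHD4 (44.6) apart from both its neighbours. From HDAC2 at rank 13 down to KDM5A at rank 41, the untreated libraries of every neighbouring pair overlapped. Below them CBX2 (3.05), MBD3 (2.35), CBX8 (1.63) and PHC1 each stood apart. The order depends on the length used: by the union of all annotated exons HDAC1 stayed highest and MBD3, CBX8 and PHC1 lowest, but CHD4 ranked 2, EZH2 7, RAD21 8 and KDM1A 17.

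**Figure D2:**
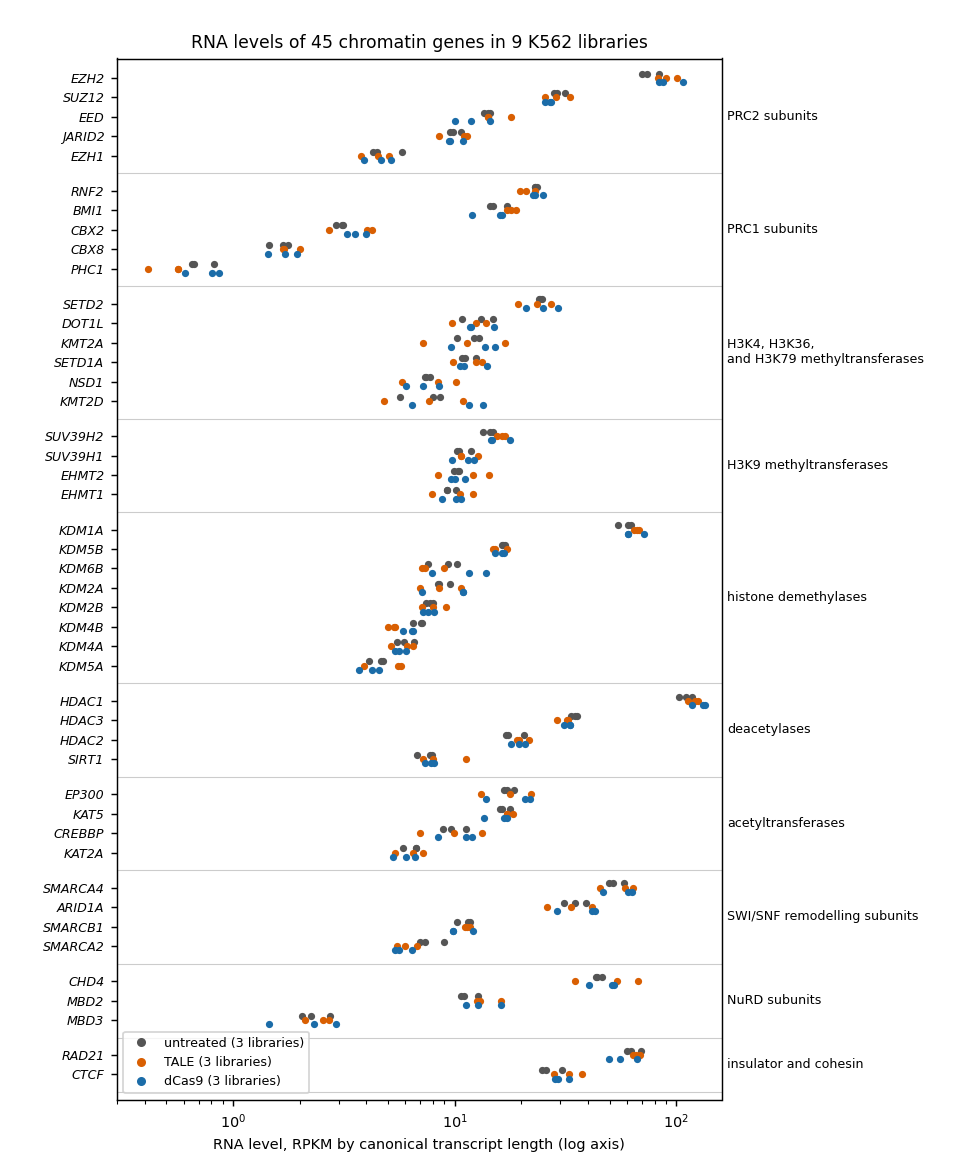
RNA level in RPKM (logarithmic axis) of each member in all 9 libraries, grouped by role and ordered within a role by the untreated mean; each point is 1 library. Members differ far more from each other, from 0.714 for PHC1 to 111 for HDAC1 in untreated cells, than the groups differ within a member.

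Among PRC2 subunits, EZH2, the methyltransferase that predominates in dividing cells, was 15.7-fold higher per length than EZH1, its counterpart in resting cells, at 4.85 ± 0.804 RPKM in untreated cells. EZH2 (chr7:148504349-148581413) was at 222, 196 and 186 CPM in the untreated libraries. It was at 238, 221 and 268 in TALE silenced cells and at 231, 284 and 222 in dCas9 silenced cells. The lowest silenced libraries lay next to the highest untreated library, and both other untreated libraries lay below every silenced library. TALE differed from untreated by a log2 fold change of 0.27 (SE 0.131, adjusted p = 0.713). The value for dCas9 was 0.29 (SE 0.131, unadjusted p = 0.0425, adjusted p = 0.827), and 0.17 without dCas9 replicate 2. Without both libraries that stood apart the values were 0.19 and 0.33. EZH1 (chr17:40852293-40897067) was at 19.9 to 26.7 CPM in untreated cells and 17.5 to 24.0 CPM in silenced cells, and its ranges overlapped in every comparison. The log2 ratio of EZH2 to EZH1 per length lay between 3.60 and 4.74 in the 9 libraries. SUZ12, the core scaffold of the complex, was at 29.6 ± 1.72 RPKM in untreated cells and 26.6 ± 1.04 in dCas9 silenced cells, whose libraries lay below all untreated ones (log2 fold change -0.15, SE 0.118, adjusted p = 0.959). EED, which binds the methylated histone tail, was tight in untreated cells at 28.4, 29.7 and 30.2 CPM. It was at 37.4, 29.6 and 29.4 in TALE silenced cells and at 30.1, 24.6 and 21.0 in dCas9 silenced cells. The difference between TALE and dCas9 was 0.34 (SE 0.143, unadjusted p = 0.0272, adjusted p = 0.745), with overlapping ranges. It was 0.23 without TALE replicate 1 and also without dCas9 replicate 3, and 0.55 (adjusted p = 0.0859) without both libraries that stood apart. JARID2, an accessory subunit that helps recruit the complex, was at 10.0, 10.3 and 9.99 RPKM in the untreated, TALE and dCas9 groups.

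PRC1 members differed widely in level. RNF2, the ubiquitin ligase of the complex, was at 23.2 ± 0.245 RPKM in untreated cells and varied little between libraries, from 67.5 to 85.0 CPM. BMI1 (chr10:22610028-22620413), a partner that stimulates the ligase, was at 61.1, 50.9 and 52.5 CPM in untreated cells. It was at 66.9, 63.5 and 61.0 in TALE silenced cells and at 56.5, 57.9 and 42.3 in dCas9 silenced cells. The TALE libraries all lay above the dCas9 libraries (log2 fold change 0.29, SE 0.128, unadjusted p = 0.037, adjusted p = 0.759), while the untreated libraries overlapped the dCas9 group. That difference was 0.15 without dCas9 replicate 3 and 0.38 (adjusted p = 0.215) without both libraries that stood apart. CBX2 and CBX8, which read methylated lysine 27, were low at 3.05 ± 0.123 and 1.63 ± 0.166 RPKM. PHC1 (chr12:9066492-9094063), which polymerises through its SAM domain, was at 4.45, 3.58 and 3.51 CPM in untreated cells. It was at 3.04, 2.23 and 3.06 in TALE silenced cells and at 4.36, 4.66 and 3.27 in dCas9 silenced cells. All 3 TALE libraries lay below every library of both other groups. The log2 fold change was -0.49 (SE 0.261, adjusted p = 0.732) against untreated and -0.57 (SE 0.257, adjusted p = 0.761) against dCas9, the latter -0.60 (adjusted p = 0.427) without both libraries that stood apart. Over PRC1 the lowest and highest bounds of any interval against untreated cells were -1.04 and 0.62 for TALE.

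**Figure D3:**
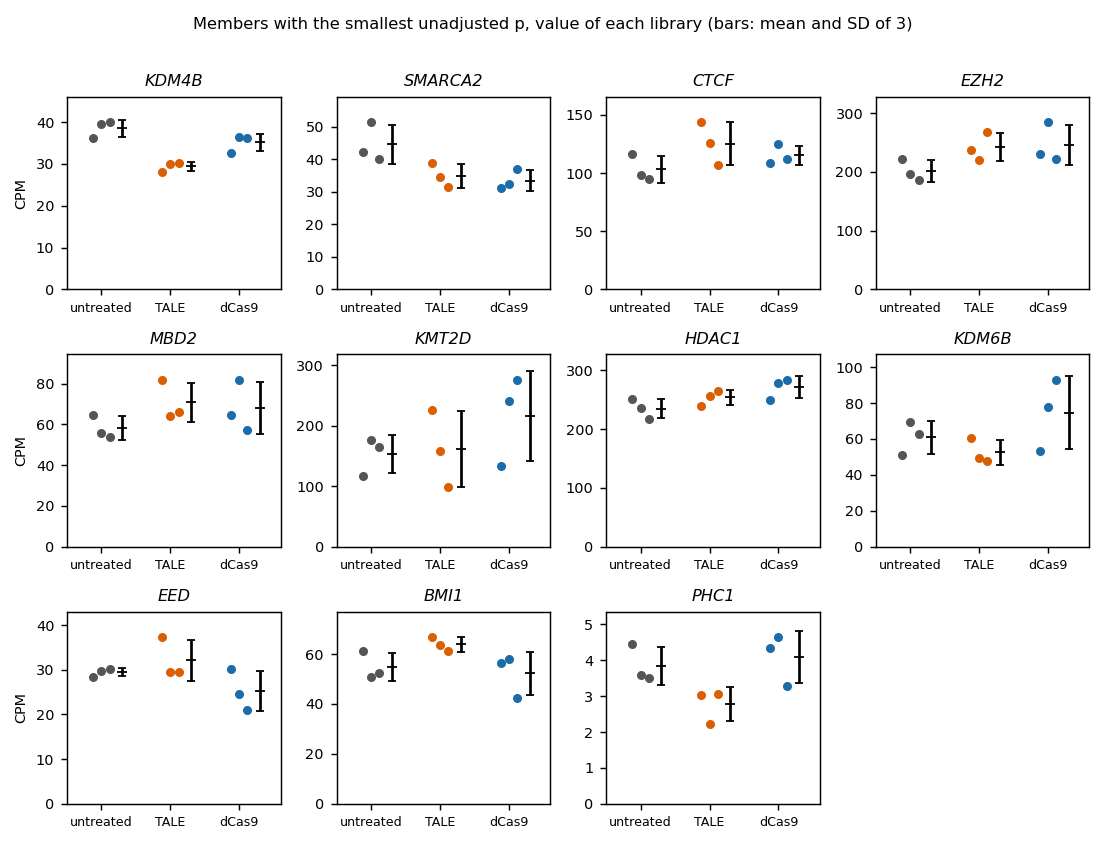
CPM (vertical axis, from 0) of the 11 members with the smallest unadjusted p in any comparison, 1 point per library, with the mean and SD of 3 libraries beside each group. KDM4B and PHC1 have TALE libraries below both other groups, SMARCA2 has silenced libraries below the untreated ones, and KMT2D and KDM6B spread widely within the dCas9 group.

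The methyltransferases for lysines 4, 36 and 79 of histone H3 included the longest transcripts and the widest spread. KMT2D (chr12:49412758-49454577), which marks enhancers, was at 117, 177 and 165 CPM in untreated cells. It was at 226, 159 and 99.2 in TALE silenced cells and at 133, 240 and 276 in dCas9 silenced cells, a 2.79-fold range over the 9 libraries. Every group overlapped every other, and TALE replicate 3 was the lowest library of all. The log2 fold change in dCas9 was 0.50 (SE 0.259, adjusted p = 0.872), and in TALE it was 0.08 (SE 0.259, adjusted p = 0.975). With TALE replicate 3 and dCas9 replicate 1 both left out, KMT2D in dCas9 against untreated was at 0.76 (SE 0.160, adjusted p = 0.032); without dCas9 replicate 1 alone it was at 0.76 with an adjusted p of 0.254, and without dCas9 replicate 3 at 0.29. KMT2A, the MLL gene, spread over 2.34-fold, from 119 CPM in TALE replicate 3 to 280 in TALE replicate 1. SETD2, which trimethylates lysine 36, was the highest of this role at 24.4 ± 0.447 RPKM in untreated cells, and KMT2D the lowest at 7.41 ± 1.54. SETD1A, NSD1 and DOT1L were at 11.5, 7.51 and 13.0 RPKM, and none of the 6 had an unadjusted p under 0.05. The 4 methyltransferases for lysine 9, a mark of heterochromatin, lay close together by canonical length. SUV39H2 was the highest at 14.2 ± 0.762 RPKM and EHMT1 the lowest at 9.54 ± 0.519; by the union of exons they were at 12.2 and 2.19. SUV39H2 was at 40.9, 44.4 and 45.4 CPM in untreated cells and at 50.1, 47.5 and 51.9 in TALE silenced cells, without overlap, and at 45.3, 54.7 and 44.5 in dCas9 silenced cells, with overlap (TALE: log2 fold change 0.20, SE 0.115, adjusted p = 0.770). EHMT2 exceeded EHMT1 by 1.07-fold per length in untreated cells, and in 1 of the 9 libraries the order was turned; by the union of exons the ratio was 2.55-fold.

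Among the histone demethylases, KDM4B (chr19:4969124-5153609), which removes methyl groups from lysine 9, had the smallest unadjusted p of any member against untreated cells in the TALE group. It was at 36.2, 39.4 and 39.9 CPM in untreated cells. The TALE libraries were at 28.1, 29.9 and 30.2, below all others, and the dCas9 libraries at 32.7, 36.5 and 36.1. The log2 fold change in TALE was -0.39 (SE 0.113, unadjusted p = 0.00309, adjusted p = 0.483), and against dCas9 it was -0.25 (SE 0.113, unadjusted p = 0.0369, adjusted p = 0.759). In dCas9 against untreated it was -0.13 (SE 0.113, adjusted p = 0.965), with overlapping ranges. Without both libraries that stood apart KDM4B was at -0.40 (adjusted p = 0.0983) in TALE against untreated and -0.32 (adjusted p = 0.249) against dCas9. KDM4A, the close relative of KDM4B, was at 26.9 ± 2.42 CPM in untreated cells, 26.5 ± 2.97 in TALE silenced cells and 25.5 ± 1.36 in dCas9 silenced cells, with overlap throughout. KDM6B (chr17:7737535-7758114), which removes the PRC2 mark from lysine 27, was at 51.1, 69.2 and 62.8 CPM in untreated cells. It was at 60.4, 49.4 and 47.8 in TALE silenced cells and at 53.1, 78.0 and 93.1 in dCas9 silenced cells. Both high dCas9 libraries lay above all others, while dCas9 replicate 1 lay among the TALE values. Against untreated cells the log2 fold change of KDM6B in dCas9 was 0.29 (SE 0.170, adjusted p = 0.904). The difference between TALE and dCas9 was -0.51 (SE 0.170, unadjusted p = 0.0079, adjusted p = 0.687). It was -0.32 without dCas9 replicate 3 and -0.70 (adjusted p = 0.0653) without dCas9 replicate 1. Without both libraries that stood apart it was -0.64 (SE 0.147, adjusted p = 0.0459), which is no independent test. KDM1A, the lysine 4 demethylase LSD1, was the highest of the role at 59.4 ± 4.39 RPKM in untreated cells and KDM5A, which also acts on lysine 4, the lowest at 4.52 ± 0.34. KDM1A was at 168 to 194 CPM in untreated cells and 198 to 210 in TALE silenced cells, without overlap (log2 fold change 0.16, SE 0.117, adjusted p = 0.805). KDM5B exceeded KDM5A by 3.68-fold per length (1.54-fold by the union of exons) and varied only 1.16-fold over the 9 libraries.

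HDAC1 led the deacetylases and exceeded HDAC2, with which it shares complexes, by 6.05-fold per length. HDAC1 (chr1:32757684-32799236) was at 251, 235 and 218 CPM in untreated cells, at 239, 257 and 266 in TALE silenced cells and at 250, 279 and 284 in dCas9 silenced cells. All groups overlapped, and the log2 fold change in dCas9 was 0.21 (SE 0.117, adjusted p = 0.899). HDAC3, the catalytic subunit of the NCoR and SMRT corepressors, was at 67.8, 69.2 and 65.1 CPM in untreated cells. It was at 56.0, 62.4 and 62.8 in TALE silenced cells and at 64.2, 60.2 and 63.9 in dCas9 silenced cells, so all 6 silenced libraries lay below all untreated ones. Over both silenced groups the difference was small, at -0.13 (SE 0.0904, adjusted p = 0.869). SIRT1, a deacetylase that uses NAD, was the lowest of the role at 7.49 ± 0.622 RPKM. Among the acetyltransferases EP300 was the highest at 17.4 ± 0.938 RPKM and KAT2A, the SAGA acetyltransferase, the lowest at 6.40 ± 0.472. EP300 exceeded its paralogue CREBBP by 1.76-fold, and the log2 ratio stayed between 0.71 and 0.96 in the 9 libraries although each gene by itself ranged over 1.68-fold and 1.91-fold. No deacetylase or acetyltransferase among the members had an unadjusted p under 0.05 in any comparison.

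SMARCA2 (chr9:1980290-2193624), known as BRM and 1 of the alternative ATPases of SWI/SNF, had the smallest adjusted p of any member. It was at 42.1, 51.3 and 40.0 CPM in untreated cells. The TALE libraries were at 38.8, 34.5 and 31.5 and the dCas9 libraries at 31.0, 32.2 and 37.0. All 6 silenced libraries lay below all 3 untreated libraries, the nearest by a small margin. In log2 terms TALE lay at -0.35 (SE 0.130, adjusted p = 0.585), dCas9 at -0.41 (SE 0.130, adjusted p = 0.530) and both together at -0.38 (SE 0.111, unadjusted p = 0.00313, adjusted p = 0.412). Without untreated replicate 2, the highest library, the last value was -0.27, and without both libraries that stood apart it was -0.32 (adjusted p = 0.174). SMARCA4, known as BRG1 and the other ATPase, was at 53.1 ± 4.37 RPKM in untreated cells, 6.89-fold above SMARCA2, and at 56.0 ± 9.80 and 56.6 ± 8.85 in the silenced groups. The log2 ratio of SMARCA4 to SMARCA2 was 2.70 to 2.89 in the untreated libraries and 3.04 to 3.49 in the silenced libraries, without overlap. This ratio was picked with the values of SMARCA2 in view and is a description. ARID1A, the DNA-binding subunit of the complex, and SMARCB1, a core subunit, were at 35.1 ± 3.99 and 11.2 ± 0.8 RPKM, with overlap in every comparison.

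CHD4, the ATPase of NuRD, was at 44.6 ± 1.59 RPKM in untreated cells and ranged from 228 CPM in TALE replicate 3 to 437 in TALE replicate 1. MBD2, which binds methylated CpG, exceeded MBD3, which largely does not, by 4.90-fold per length. MBD2 was at 64.8, 55.7 and 54.0 CPM in untreated cells, at 81.8, 64.2 and 66.2 in TALE silenced cells and at 64.7, 82.0 and 57.0 in dCas9 silenced cells. The groups overlapped, with log2 fold changes of 0.28 in TALE (SE 0.141, adjusted p = 0.724) and 0.22 in dCas9 (SE 0.141, adjusted p = 0.932). In TALE it was 0.16 without TALE replicate 1 and 0.32 without both libraries that stood apart. CTCF (chr16:67596370-67673080), the insulator protein, was at 117, 98.7 and 94.5 CPM in untreated cells, at 144, 126 and 107 in TALE silenced cells and at 108, 125 and 112 in dCas9 silenced cells. The highest untreated library lay among the silenced ones, with log2 fold changes of 0.28 in TALE (SE 0.129, unadjusted p = 0.0465, adjusted p = 0.696) and 0.16 in dCas9 (SE 0.129, adjusted p = 0.965). In TALE it was 0.17 without TALE replicate 1 and 0.38 (adjusted p = 0.119) without both libraries that stood apart. RAD21, the cohesin subunit that closes the ring, was at 63.9 ± 4.57 RPKM in untreated cells, 65.9 ± 2.52 in TALE silenced cells and 57.4 ± 8.65 in dCas9 silenced cells.

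In 9 of 12 pairs of paralogues or alternative subunits the same member was higher by canonical length in all 9 libraries. The smallest of these ratios were 1.31-fold for SUV39H2 over SUV39H1 and 1.61-fold for KMT2A over KMT2D, and CBX2 exceeded CBX8 by 1.87-fold. The order varied between libraries for EHMT2 over EHMT1, KDM2A over KDM2B (higher in 7 of 9) and KDM4B over KDM4A (higher in 6 of 9). KDM4B exceeded KDM4A in 2 of the 3 untreated libraries and in 1 of the 3 TALE libraries. These ratios depend on the length assigned to each gene. With the length of the union of all annotated exons, the order was the same in all 9 libraries for 11 pairs. KMT2A then exceeded KMT2D by only 1.05-fold in untreated cells and in 2 of the 9 libraries, and KDM2A exceeded KDM2B by 2.09-fold and in all 9. By that length the log2 ratio of KDM4B to KDM4A was -0.98, with KDM4A higher in all 9 libraries, that of EZH2 to EZH1 shrank from 3.97 to 2.55 and that of SMARCA4 to SMARCA2 moved from 2.78 to 3.03. More than 20% of the canonical transcript was shared with exons of other annotated genes for 8 members, namely BMI1, PHC1, KMT2A, SUV39H1, KDM4A, KAT5, SMARCB1 and CHD4, the last with 90.1%. How reads there were assigned is not given in the sources used here, so these levels are uncertain. The readthrough gene COMMD3-BMI1, which overlaps BMI1, held 2 counts over the 9 libraries beside 5308 on BMI1.

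Differences between libraries of 1 group went with the length of the members' transcripts, most in TALE replicate 3 and dCas9 replicate 1. The members' canonical transcripts were long, with a median of 5191 bases against 3043 for all tested genes with a length. For each library, the deviation of each member from its mean over the 9 libraries, on the log2(CPM + 0.5) scale, was set against transcript length. Across the 45 members Pearson's r was -0.78 in TALE replicate 3 and -0.63 in dCas9 replicate 1; it was 0.43 in TALE replicate 1, 0.42 in dCas9 replicate 2 and 0.47 in dCas9 replicate 3. It was weaker in TALE replicate 2 (-0.07) and in untreated replicates 1 to 3 (-0.37, 0.29 and 0.14). With the GC content of the transcript r was larger than with length in dCas9 replicate 3 (0.57) and in untreated replicates 1 (-0.47), 2 (0.41) and 3 (0.23). The points of a library share its depth and scaling, so these values are descriptions. The median deviation of the 10 longest members was -0.40 in TALE replicate 3 and -0.28 in dCas9 replicate 1, with 9 of 10 below 0 in each, and 0.32 in TALE replicate 1. That of the 10 shortest members was 0.04 in TALE replicate 3 and 0.01 in dCas9 replicate 1. Over 12229 tested genes the same r with length was -0.38 in TALE replicate 3 and -0.32 in dCas9 replicate 1, 0.32 in TALE replicate 1, but 0.06 in dCas9 replicate 2, 0.05 in dCas9 replicate 3 and 0.11 in untreated replicate 1. The median SD within groups was 0.28 (log2) for the 10 longest members and 0.11 for the 10 shortest, and 0.19 for all tested genes with a length. Among single members it ran from 0.0655 in HDAC3, the shortest, to 0.51 in KMT2D, the longest. The labels give no RNA quality value for these libraries, and its part in the pattern was not tested. With an offset for transcript length and GC content, chosen after the data had been seen, no member was called, and those at an unadjusted p under 0.05 numbered 6 for TALE, 5 for dCas9, 6 between them and 7 for both silenced groups, where the shares of all genes were 10.2%, 7.95%, 9.26% and 8.93%.

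**Figure D4:**
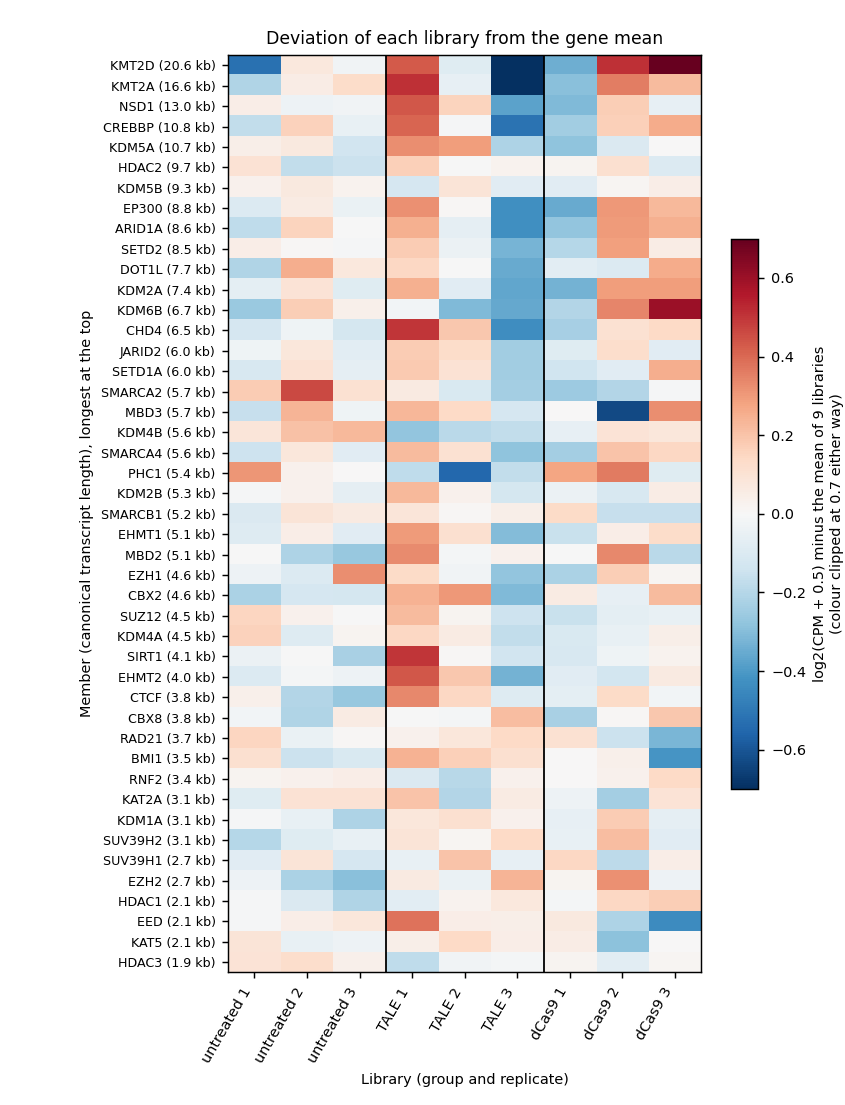
Colour shows the deviation of each member in each library from its mean over 9 libraries on the log2(CPM + 0.5) scale, clipped at 0.7; rows run from the longest transcript to the shortest, and columns are libraries. The upper rows are low in TALE replicate 3 and dCas9 replicate 1 and high in TALE replicate 1, while the lower rows vary less.

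A further 93 genes of the same complexes and enzyme families were listed, and 92 passed the filter. None was called in any comparison, and 3, 2, 3 and 1 had an unadjusted p under 0.05 for TALE, dCas9, TALE against dCas9 and both silenced groups. As shares these are 3.26%, 2.17%, 3.26% and 1.09%, below the 7.15%, 5.93%, 6.38% and 6.35% of all genes tested. The 3 genes in TALE against untreated were SMC3 and SMC1A, which form the cohesin ring, and BAZ1B, a subunit of the WICH remodeller. The 8 other cohesin genes ranged there from 0.07 to 0.37, and the highest, SMC3, had an adjusted p of 0.649. The 12 other SWI/SNF genes ranged from 0.07 to 0.23. Members of the same complexes did not all lie in these ranges. SMARCA2 was at -0.35, ARID1A at -0.05, SMARCB1 at 0.03, SMARCA4 at 0.08 and RAD21 at 0.04. The 14 other PRC1 genes ranged from -0.11 to 0.15, and the 11 other deacetylases tested from -0.26 to 0.26. In dCas9 against untreated the cohesin genes ranged from -0.27 to 0.24 and the SWI/SNF genes from -0.13 to 0.23. The smallest p in dCas9 against untreated was that of the deacetylase SIRT2 (log2 fold change -0.34, SE 0.150, adjusted p = 0.794). Between TALE and dCas9 it was that of DPF2, a SWI/SNF subunit (0.27, SE 0.114, adjusted p = 0.745). The 6 other PRC2 genes ranged from -0.24 to 0.18 in TALE and from -0.21 to 0.14 in dCas9, and none had an unadjusted p under 0.05 in any comparison.

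In the MeDIP data none of the 45 member starts lay inside a listed region, and none lay inside a peak that the authors called in any of the 9 samples. Among 10878 tested coding genes, 0.478% of starts lay inside a region and 2.25% in a peak of at least 1 sample. Among 8231 coding genes that did not pass the RNA filter, the shares were 2.14% and 6.85%. With 45 genes, a share near that of the tested genes would also give few or no members. A region within 1000 bp of the start was listed for 2 members, EZH1 and KDM4A (4.44%, against 19.7% of tested coding genes). Within 2000 bp there were 18 members (40.0% against 54.4%), and within 5000 bp 39 (86.7% against 89.3%). In peaks of single samples, 6 members had a peak within 1000 bp (13.3%, against 30.9% of tested coding genes), KDM4A in all 9 samples, KAT2A and SMARCB1 in 5, EZH1 and KAT5 in 2 and KMT2D in 1. The 250 bases before the start held a median of 10.8 CG per 100 bases in members (4.4 in the lowest, 19.2 in the highest), 8.8 in tested coding genes and 3.2 in those not tested. The 22 regions within 2000 bp held a median of 2.81 CG per 100 bases, and 16 of them lay upstream.

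**Figure D5:**
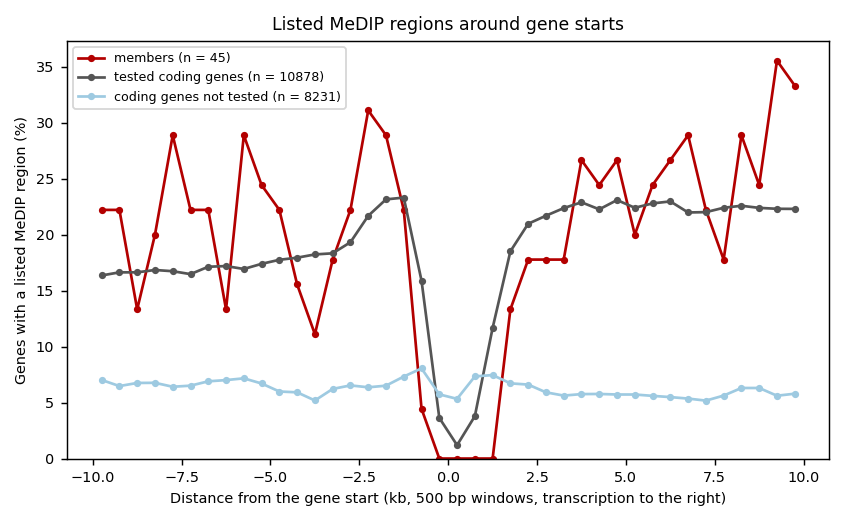
Percent of genes with a listed MeDIP region (vertical axis, from 0) in windows of 500 bp by distance from the gene start (horizontal axis, kb) for the 45 members, tested coding genes and coding genes not tested. Members and tested genes dip around the start, and no member has a region inside it.

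No region within 2000 bp of a member start was called; 19 of the 22 passed the count filter, and the regions called among all 105652 tested were 0% for TALE, 0.000947% for dCas9, 0.000947% between them and 0% for both silenced groups. The nearest region upstream of KMT2D, the only member with an unadjusted p under 0.05 within 2000 bp, held 12, 3 and 8 counts in the untreated libraries, 12, 15 and 13 in TALE and 14, 21 and 15 in dCas9. Every dCas9 library lay above every untreated library, while a TALE library overlapped them. The log2 fold change was 1.16 (SE 0.468, unadjusted p = 0.0152, adjusted p = 1.0) in dCas9 and 0.92 (SE 0.481, adjusted p = 0.9997) in TALE, on few counts. The nearest region upstream of EZH1 held 17, 12 and 20 counts in untreated cells, 11, 8 and 7 in TALE and 13, 14 and 5 in dCas9. Scaled to library size, the TALE libraries lay below the untreated ones (log2 fold change -0.77, SE 0.475, adjusted p = 0.9997), and the dCas9 libraries overlapped them. Regions near the starts of SIRT1 and KAT5 also lay lower in all TALE libraries than in all untreated ones, and 1 of HDAC1 higher. The HDAC1 region was higher in all dCas9 libraries too (both silenced groups: log2 fold change 0.53, SE 0.305). In dCas9 a KAT2A region lay lower, and MBD3 and SMARCA4 regions higher. The share of all regions that separate in this way is not given here, so these are descriptions. Of 851 regions within the bodies of 44 members, 676 passed the filter. None was called, and 29 had an unadjusted p under 0.05 for TALE (background 4.74%), 34 for dCas9 (4.69%), 37 between the groups (4.47%) and 30 for both (4.88%). BMI1 was the member with no listed region in its gene.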

How the data were processed

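RNA was amplified from total RNA with the Ovation Human FFPE kit, and methylated DNA was captured with an antibody to 5-methylcytosine from libraries already joined into a pool, per the labels' protocols. The authors deposited raw gene counts and raw counts over MeDIP regions, in which no normalization was seen. They also deposited broad peaks per sample, of which only the positions were used, not the fold enrichment. The submitters' processing notes name STAR 2.3.0 for RNA, BWA 0.7.5, Picard, MACS2 and bedtools for MeDIP, and hg19 for both; the counter, its annotation and its strand setting are not given in the sources used here.

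Each assay was fitted as 1 model of 3 groups over its 9 libraries with edgeR 4.0.16 in R 4.3.3 (quasi-likelihood test, TMM scaling, filterByExpr with a minimum count of 10), with p-values adjusted over all features and a threshold of 0.05. Scripts were tested on simulated data. Standard errors and 95% intervals come from that fit. CPM uses TMM library sizes, and log2 deviations a pseudocount of 0.5. Lengths, positions and starts are those of canonical transcripts in the GENCODE annotation lifted to GRCh37, and sequences come from that genome. Same-numbered libraries did not deviate together, so replicate numbers were not used as a block. DESeq2 1.42.0 and other settings were alternatives. The members, the gene lists and the tests were chosen with earlier results of these data known. The members named are the 5 with the smallest p per comparison, the highest and lowest of each role, members of 12 pairs, and members with a region within 2000 bp of the start at an unadjusted p under 0.05. SUZ12, HDAC3 and other members were also described, after their values had been seen. The sequences of regions upstream of members are not reported here.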

Additional observations from a re-analysis of the deposited data

How the results depend on the processing

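No member was called in any comparison when any 1 library was left out (lowest and highest count 0 and 0), and no region near a member start was called under any alternative run. In 335 refits of 20 named pairs of gene and comparison none changed sign. These pairs were picked for the smallest p in the main fit, and the refits reuse all or most of its libraries. A steady sign was therefore likely beforehand and is no independent support. Members at an unadjusted p under 0.05 moved more. Leaving out 1 library gave 1 to 9 for TALE against untreated, 0 to 6 for dCas9, 2 to 10 between them and 0 to 8 for both silenced groups. The shares of all genes ran from 3.17% to 14.4%, 3.73% to 9.60%, 4.35% to 12.7% and 3.22% to 10.25% in the same order. The highest counts came without TALE replicate 3, or without dCas9 replicate 1 for dCas9 against untreated; the lowest against untreated came without untreated replicate 2, and between TALE and dCas9 without TALE replicate 2, dCas9 replicate 2 or dCas9 replicate 3. With no filter on low counts the members were 5 for TALE (5.31% of all genes), 4 for dCas9 (4.02%) and 5 for both (7.03%). With only the groups compared they were 5 for TALE (7.93%) and 1 between TALE and dCas9 (4.78%). With DESeq2 they were 2 between TALE and dCas9 (5.13%). With TALE replicate 3 and dCas9 replicate 1 both left out, added after seeing the data, they were 11, 10, 8 and 12 in the same order, beside 16.6%, 12.9%, 14.6% and 14.7% of all genes, and 1 member was called in dCas9 against untreated and 1 in TALE against dCas9. With an offset for length and GC content, also added, they were 6, 5, 6 and 7, beside 10.2%, 7.95%, 9.26% and 8.93% of all genes. The cause was not tested.

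Correlations of same-numbered RNA libraries ran from -0.26 to 0.10, and those of MeDIP libraries were near 0. With the replicate block the members at an unadjusted p under 0.05 numbered 3, 1, 5 and 3, beside 6.63%, 5.20%, 6.06% and 5.64% of all genes, and none was called. TALE replicate 1 correlated best with dCas9 replicate 2, not with its own number.

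Regions near starts at an unadjusted p under 0.05 numbered 0 to 2 for TALE, 0 to 2 for dCas9, 0 between them and 0 to 2 for both when 1 library was left out. Within 5000 bp they were 4, 2, 4 and 5, where the number of regions tested is not given here. Over all regions tested the shares in the main fit were 4.74%, 4.69%, 4.47% and 4.88%. Within 1000 bp, and with at least 10 counts in every library, the regions near starts at that p were 0 for dCas9 and 0 for both. With the union of exons as length the median member was at 8.26 RPKM, and the median of all tested genes by that length is not given here. The 3 libraries of a group limit what could be seen: intervals of single members reached from -1.11 to 1.05 on the log2 scale.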
